A study of Homo sapiens with 8 samples.

Results

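The MEG3 imprinted locus is a cluster on the long arm of human chromosome 14 from which 3 long non-coding RNA (lncRNA) genes, MEG3, MEG8 and MEG9, and 2 protein-coding genes, DLK1 and RTL1, were examined. Members were taken by gene name from the deposited expression table, in which 4 of the 5 were listed among 16525 genes in all. RTL1 was not listed and was not analysed here. RNA sequencing had been performed on EndoC-βH5, a human pancreatic beta-cell line, left untreated or cultured for 48 h with 3 cytokines, IL-1β at 50 U/mL and both IFNγ and TNFα at 1000 U/mL, with 4 libraries in each condition. Both groups are the same line in the same medium and differ only in the cytokines, so the results describe 1 cell line and not donors. The labels do not say that replicates came from separate cultures, so p-values measure only the spread between these libraries, which may be technical. Each control library shared the first part of its column name with 1 cytokine library, and these 4 pairs are called A, B, C and D. The shared first part of the name holds a pair of numbers, of which the second was the same in pairs A and B and another in pairs C and D, and these are called the 2 prefix groups. The question was whether cytokines changed the RNA of this locus.

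An imprinted gene is transcribed mainly or only from the copy inherited from one parent, for some genes only in some tissues or transcripts. Which copy was transcribed in these libraries was not tested. At this locus, DLK1 and RTL1 are expressed from the paternal chromosome, whereas MEG3, MEG8, MEG9 and a large set of microRNAs and small nucleolar RNAs between them are expressed from the maternal one, under the control of a differentially methylated region upstream of MEG3. MEG3 is abundant in human islets and in endocrine cells generally, and DLK1, a transmembrane protein related to the Notch ligands, lies in a region associated with type 1 diabetes.

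The genes lie in the order DLK1, MEG3, RTL1, MEG8 and MEG9. In GENCODE 29 (GRCh38), DLK1 (ENSG00000185559) spans chr14:100725705-100738224, MEG3 (ENSG00000214548) chr14:100779410-100861031, MEG8 (ENSG00000225746) chr14:100894770-101038859 and MEG9 (ENSG00000223403) chr14:101064151-101072937, all on the plus strand. RTL1 (chr14:100879753-100903722) lies on the minus strand and overlaps the span of MEG8 without sharing exon bases with it. MEG3 shares 289 of its 23224 exon bases with an antisense transcript and 108 with a same-strand lncRNA, which also shares 1565 of the 11109 exon bases of MEG8. Neither of those neighbours had a row in the table, and the counting used the strand according to the labels and methods, but reads in the same-strand overlap cannot be split between the genes.

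Promoter sequences were found in RefSeq (GRCh38.p14) for 3 of the 5 members. Those of the 2 measured ones are shown because each holds a RefSeq start site of its lncRNA. The MEG3 window covers chr14:100825858-100826157 (plus strand), inside the GENCODE span of the gene and with a start site 46698 bases downstream of the GENCODE start. The MEG9 window covers chr14:101069661-101069960 (plus strand), also inside the GENCODE span, with a start site 5760 bases downstream of the GENCODE start. Capitals mark TGACGTCA, the cAMP response element (CRE), a sequence bound by CREB-family factors.
MEG3: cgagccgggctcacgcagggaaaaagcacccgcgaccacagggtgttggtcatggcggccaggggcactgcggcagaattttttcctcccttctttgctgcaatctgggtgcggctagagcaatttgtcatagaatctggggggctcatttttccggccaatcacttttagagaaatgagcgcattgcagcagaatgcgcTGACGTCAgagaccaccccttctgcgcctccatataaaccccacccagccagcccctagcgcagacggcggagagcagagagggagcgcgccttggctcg
MEG9: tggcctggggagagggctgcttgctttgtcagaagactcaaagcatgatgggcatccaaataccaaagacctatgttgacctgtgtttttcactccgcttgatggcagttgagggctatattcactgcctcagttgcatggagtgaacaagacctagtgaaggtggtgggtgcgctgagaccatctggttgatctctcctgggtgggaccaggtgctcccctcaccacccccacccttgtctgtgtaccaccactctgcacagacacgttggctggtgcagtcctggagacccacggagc
A CRE is found on either strand in 1.85% of 35116 RefSeq promoter windows of 300 bases. MEG3 has 3 RefSeq start sites, and the CRE lies 50 bases before the one in the window shown. It lies 60 and 74 bases before the others. The MEG3 window shown also holds TATAAA, which 11.5% of windows hold, and CCAAT, which 34.6% hold. It has no match to TTCNNNGAA, the letters of a gamma-activated site (7.66% of windows), or to GAAA, any 2 bases and GAAA, those of an interferon-stimulated response element (3.57%). The MEG9 window matched none of these on either strand. The gamma-activated and interferon-stimulated letters were searched because IFNγ acts through factors that bind such sites, and a missing match says only that these letters are not in this window.

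Between the MEG3 start and the MEG9 end, the RefSeq table used here placed 49 microRNA hairpins, all on the plus strand. Only MIR656, which lies in an intron of the GENCODE model of MEG9, had a row in the expression table. Its 2 mature products are shown because they were the only microRNA sequences of the locus with a measured gene, with bases 2 to 8 (the seed that pairs with targets) in capitals.
hsa-miR-656-5p: aGGUUGCCugugagguguuca
hsa-miR-656-3p: aAUAUUAUacagucaaccucu
The 2 seeds differ. MIR656 had 6 to 66 reads per library from a kit made for mRNA, and whether any came from mature microRNA was not tested. MIR656 had 0.625 ± 0.344 CPM in control and 0.523 ± 0.545 CPM in cytokine libraries (SD, n = 4), and its log2 fold change of -0.43 (SE 0.56) was not called by limma (adjusted p = 0.602).

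Values are CPM, that is, the reads on a gene relative to all reads of its library. The 8 libraries held 46767972 to 51145634 reads, and every value was a whole number of reads, so that 1 read was worth 0.0196 to 0.0214 CPM. The depth thus gave 29266 to 78655 reads on MEG3 but only 149 to 336 on MEG8. A gene was called when its log2 fold change in limma, on log2(CPM + 0.1), was past 0.5 in either direction at a false discovery rate under 0.05. By this rule 27.0% of the 16525 genes were called, 9.52% higher and 17.5% lower with cytokines, and the median log2 fold change over all genes was -0.17. Scaling by TMM, which centres most genes, moved that median to -0.02 and the calls to 24.7% of the genes, 13.0% higher and 11.7% lower. None of the 4 members was called by limma in the unpaired comparison, with or without TMM, nor by edgeR or DESeq2 on the reads. At an unadjusted p under 0.05 the count was 0 in limma and 1 each in edgeR and DESeq2, in both cases MEG3.

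MEG3 RNA was higher with cytokines in all 4 pairs. Control libraries A, B, C and D had 1198, 1112, 583 and 1041 CPM. The cytokine libraries of the same pairs had 1476, 1637, 900.3 and 1580 CPM. The groups overlapped because pair C was low in both conditions, with its cytokine library below 3 of the control libraries. The means were 983 ± 275 CPM in control and 1398 ± 339 CPM in cytokine libraries (SD, n = 4), a ratio of 1.42. The log2 fold change was 0.52 (SE 0.27, 95% interval -0.06 to 1.11), which limma did not call (adjusted p = 0.162), and the 2-sided exact permutation test of 4 against 4 libraries gave p = 0.143. In the same comparison 12 of 17 beta-cell markers were lower and none was higher (70.6%, against 27.0% of all genes). With TMM 8 were lower and 1 higher (52.9%, against 24.7% of all genes). The summed level of the 17 markers was not lower, at 26075 to 38758 CPM in control and 30405 to 54048 CPM in cytokine libraries. Such a sum is weighted to the most abundant markers and does not show how the others moved. In bulk RNA fewer cells of a type and less RNA per cell cannot be told apart. For MEG3, the study also used quantitative PCR relative to GAPDH after 48 h with the same cytokines (n = 3). By that assay it reported no significant effect on MEG3.

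Within pairs, the log2 change of MEG3 was 0.30, 0.56, 0.63 and 0.60 in A to D, and 22.2% of all genes were likewise higher with cytokines in all 4 pairs. With the pairs as a block, limma gave the same log2 fold change of 0.52 with an SE of 0.06 (95% interval 0.39 to 0.65) and called MEG3 higher (adjusted p = 5.1e-06). The blocked fit called 35.4% of all genes, 11.6% as higher and 23.8% as lower. It counts A and B as separate replicates, although their libraries were by far the most alike within each condition. The chi-square of their reads per gene was 13.3 in control and 5.89 with cytokines. Any other 2 libraries of a condition had 66.6 or more. In edgeR with TMM and the block the log2 fold change was 0.67 (adjusted p = 6.9e-06), a fit that called 32.1% of all genes, 15.8% higher and 16.3% lower. A term for the 2 prefix groups in place of the pairs also gave a call in limma (adjusted p = 0.0386). Quantile normalization lowered the log2 fold change to 0.26 (adjusted p = 0.595), whereas leaving out control library C lowered it to 0.29 and leaving out cytokine library C raised it to 0.72, neither of them called by limma. The change did not differ detectably between the 2 prefix groups (difference in log2 fold change 0.19, SE 0.42, adjusted p = 0.999 for the limma interaction).

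**Figure D1:**
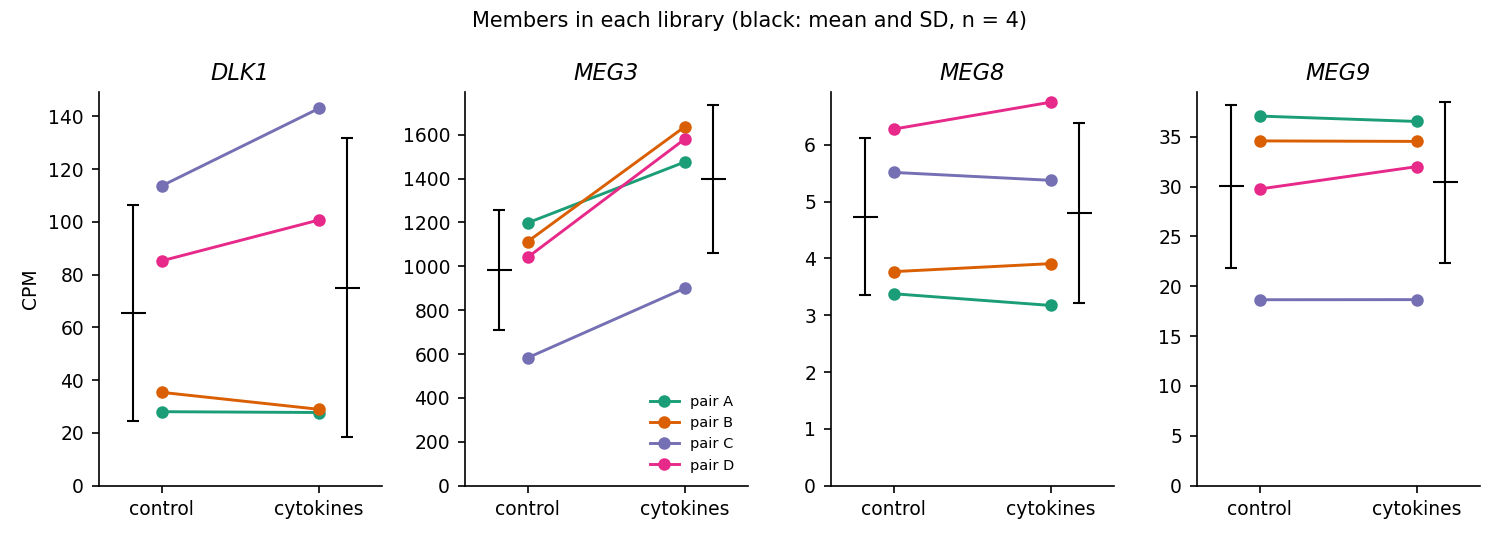
CPM of DLK1, MEG3, MEG8 and MEG9 in each library (y axis, linear, a scale for each gene) in control and cytokine cultures (x axis), with a line joining the libraries of a pair and black bars for the mean and SD of 4 libraries. All 4 MEG3 lines rise, from 583 to 1198 CPM in control to 900.3 to 1637 CPM with cytokines, while the MEG8 and MEG9 lines stay nearly level and the DLK1 lines fall in pairs A and B and rise in C and D.

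MEG9, the last lncRNA of the cluster, had nearly the same level in both conditions. Control libraries A to D had 37.1, 34.6, 18.7 and 29.8 CPM. The cytokine libraries had 36.5, 34.5, 18.7 and 32.0 CPM, so that the groups overlapped fully and pair C was again the lowest. The means were 30.0 ± 8.16 and 30.4 ± 8.06 CPM (SD, n = 4), and the log2 fold change of 0.02 (SE 0.25, 95% interval -0.54 to 0.58) was not called by limma (adjusted p = 0.961). Within pairs the log2 change lay between -0.02 and 0.10. With the block in limma the interval narrowed to -0.14 to 0.18. In edgeR with TMM and the block the log2 fold change of MEG9 was 0.17 (adjusted p = 0.0442), under the fold threshold and so not called.

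MEG8, the lncRNA that hosts many of the small nucleolar RNAs, had few reads. Control libraries A to D had 3.38, 3.77, 5.51 and 6.28 CPM. The cytokine libraries had 3.17, 3.91, 5.38 and 6.75 CPM. Each cytokine library lay next to the control library of its pair, and the order A, B, C, D was the same in both conditions. The means were 4.73 ± 1.39 and 4.80 ± 1.59 CPM (SD, n = 4), with a log2 fold change of 0.01 (SE 0.28, 95% interval -0.60 to 0.62, adjusted p = 0.987 in limma). The 4 pair values lay between -0.09 and 0.10 on the log2 scale, and the blocked interval was -0.28 to 0.29. In edgeR with TMM and the block the log2 fold change of MEG8 was 0.17 (adjusted p = 0.269), not called.

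DLK1, the paternally expressed protein-coding gene, was the most variable member. Control libraries A to D had 28.1, 35.4, 113.7 and 85.2 CPM. The cytokine libraries had 27.7, 28.96, 143.1 and 100.7 CPM. Pairs C and D were above pairs A and B in both conditions, and the groups overlapped. The means were 65.6 ± 40.9 and 75.1 ± 56.7 CPM (SD, n = 4), and the log2 fold change was 0.07 (SE 0.59, 95% interval -1.23 to 1.36, adjusted p = 0.945 in limma). The log2 change was -0.02 and -0.29 in pairs A and B and 0.33 and 0.24 in pairs C and D. The difference of 0.44 (SE 0.27) between the 2 prefix groups did not pass the limma interaction test (adjusted p = 0.999), and the blocked interval was -0.13 to 0.26. In edgeR with TMM and the block the log2 fold change of DLK1 was 0.23 (adjusted p = 0.0610), not called.

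Levels of different genes are compared here per length, as TPM, in which the reads of a gene are divided by its GENCODE exon bases and scaled to the same sum in every library. On this scale MEG3 was the highest and MEG8 the lowest of the members in every library. MEG3 had a TPM level of 159 ± 38.0 in control and 248 ± 60.3 in cytokine libraries (SD, n = 4), between rank 257 and rank 1288 of 16167 genes and between rank 2 and rank 11 of 2074 lncRNA genes over the libraries. DLK1 had 50.3 ± 35.9 TPM in control and 62.2 ± 50.5 TPM with cytokines, and MEG9 had 35.1 ± 7.17 and 38.8 ± 8.96 TPM. The ranges of DLK1 (17.8 to 120 TPM) and MEG9 (24.6 to 46.6 TPM) overlapped, and their order depended on the pair. In pair A MEG9 was above DLK1 (39.0 against 17.8 TPM in control), as in pair B, whereas in pair C DLK1 was above MEG9 (90.8 against 24.6 TPM in control), as in pair D. The highest DLK1 level also passed the lowest MEG3 level (106 TPM), but not within a library. MEG8 had 1.68 ± 0.712 and 1.85 ± 0.813 TPM. As exon bases were summed over all transcripts of a gene, the long annotated MEG3 model lowers its TPM.

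For 3 of the 4 members, the libraries of pairs A and B did not overlap with those of pairs C and D. DLK1 had 27.7 to 35.4 CPM in the 4 libraries of pairs A and B and 85.2 to 143 CPM in the 4 libraries of pairs C and D, a ratio of means of 3.68. MEG8 was also higher in C and D (5.38 to 6.75 CPM against 3.17 to 3.91 CPM, ratio 1.68). MEG9 was lower there (18.7 to 32.0 CPM against 34.5 to 37.1 CPM), with a mean 1.44 times as high in A and B. MEG3 overlapped, at 1112 to 1637 CPM in A and B and 583 to 1580 CPM in C and D. Of all genes, 20.2% did not overlap between the prefix groups, and 55 genes (0.333%) differed by at least as much as DLK1. These are 2 column-name prefixes against 2, so no test was made, and what the prefix groups stand for is not given in the labels.

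Markers of cell types were summed in the same way. Of 9 acinar and ductal markers, CPA1, KRT19, SOX9 and MUC1 were listed, while PRSS1, CELA3A, CTRB1, REG1A and CFTR had no row. The summed level of the 4 listed ones was 94.9 to 99.97 CPM in A and B and 108 to 172 CPM in C and D. Most of it was KRT19. All 17 beta-cell markers were listed (26075 to 33377 CPM in A and B, 27248 to 54048 CPM in C and D), as were all 6 alpha- and delta-cell markers (3491 to 4176 CPM against 2533 to 3608 CPM). Fibroblast and stellate markers (3 of 8 listed, COL1A1, PDGFRB and THY1) summed to 20.0 to 35.6 CPM over all libraries. The others of that list, COL1A2, COL3A1, PDGFRA, LUM and DCN, had no row. Of the endothelial and immune markers (1 of 6 listed), CD14 had 1.07 to 3.26 CPM. The others, PECAM1, VWF, CDH5, PTPRC and CD68, had no row. The acinar and ductal sums did not overlap between the prefix groups, while those of the beta-cell and of the alpha- and delta-cell markers did, and the part of such cells in the differences of DLK1, MEG8 and MEG9 was not tested.

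Across the 8 libraries, MEG3 and MEG9 varied together (Pearson r of log2 CPM 0.82), as did MEG8 and DLK1 (r = 0.90), whereas DLK1 and MEG9 varied inversely (r = -0.84). These are descriptions over 8 libraries that share pairs and prefix groups. By the same measure over 14682 genes, the profiles most like that of MEG3 were ALG13 (r = 0.98), HSD17B7P2 (r = 0.97) and RAD52 (r = 0.97). For MEG8 they were SKIL, EXOSC1 and ZSCAN9 (r = 0.982 to 0.987), for MEG9 ENSG00000279878, LINC02604 and ENSG00000237094 (r = 0.990 to 0.995), and for DLK1 RSL24D1, BCAS2 and DHRS2 (r = 0.994 to 0.997).

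A ratio between genes of 1 library does not depend on how the library was scaled, so the other members were set against MEG3. MEG9 stood at 3.10, 3.11, 3.20 and 2.86% of the MEG3 CPM in control libraries A to D. In the cytokine libraries it stood at 2.48, 2.11, 2.07 and 2.03%. The groups did not overlap, and the mean log2 ratio fell by 0.50, with p = 0.0286 in the exact permutation test (2-sided), the smallest value that 4 against 4 libraries allow, and p = 0.0857 after adjustment over the 3 ratios. The fall was 0.32, 0.56, 0.63 and 0.50 log2 units in pairs A to D. Of all genes, 28.4% had a ratio to MEG3 without overlap between conditions, 25.7% as lower with cytokines, so that MEG9 is not set apart by it.

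MEG8 stood at 0.282 to 0.946% of MEG3 in control and 0.215 to 0.597% in cytokine libraries. The log2 ratio fell by 0.51, with a decrease in 4 of 4 pairs and overlapping groups (exact permutation p = 0.343, adjusted p = 0.514). DLK1 stood at 2.34 to 19.5% in control and 1.77 to 15.9% in cytokine libraries, a fall of 0.46 in the log2 ratio, also in 4 of 4 pairs (exact permutation p = 0.657, adjusted p = 0.657). The permutation test did not use the pairs, so the spread between pairs enters its p-values. The mean of the pair differences in the log2 ratio was -0.51 (SE 0.057) for MEG8, -0.50 (SE 0.065) for MEG9 and -0.46 (SE 0.131) for DLK1. With 4 pairs, a paired permutation test cannot give a p under 0.05. All 3 ratios were thus lower with cytokines in every pair, as MEG3 itself was higher in every pair. The ratio shows unequal change between members, not which of them changed.

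**Figure D2:**
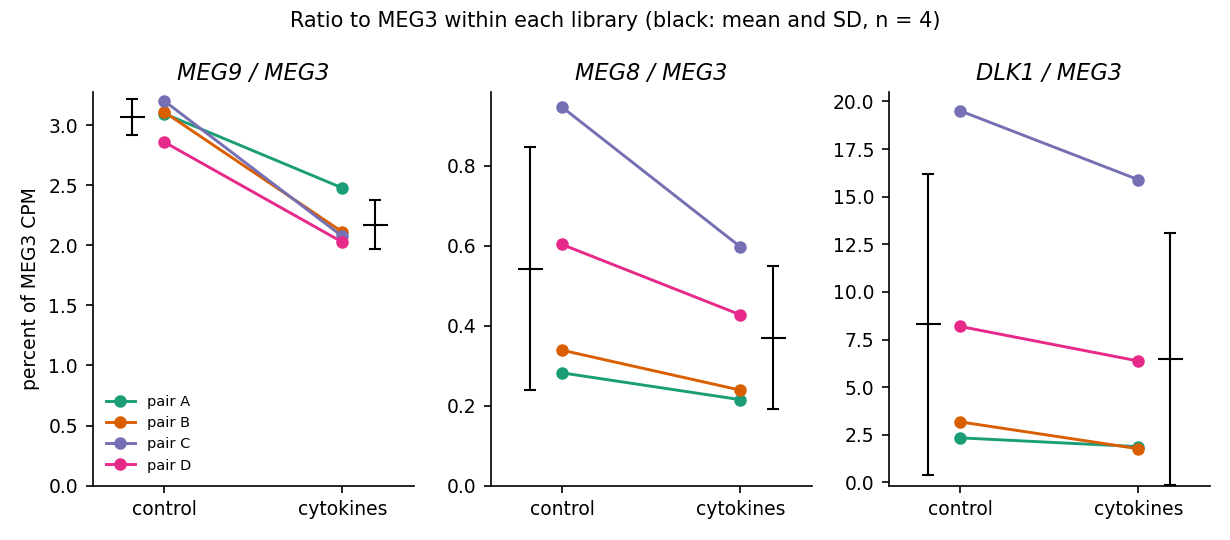
Level of MEG9, MEG8 and DLK1 as a percent of the MEG3 CPM of the same library (y axis, linear, a scale for each gene) in control and cytokine cultures (x axis), with lines for the 4 pairs and black bars for the mean and SD. All 12 lines fall, and MEG9 alone has no overlap between conditions, at 2.86 to 3.20% in control and 2.03 to 2.48% with cytokines.

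MEG3 also made up a larger share of the reads on lncRNA genes with cytokines. It held 9.70, 9.24, 5.17 and 8.23% of the reads on the 2419 lncRNA genes in control libraries A to D. In the cytokine libraries it held 13.6, 14.7, 10.6 and 14.2%, with no overlap between the groups. All other lncRNA genes together had 10694 to 11600 CPM in control and 7592 to 9516 CPM in cytokine libraries, so that both parts of the share moved. Of the lncRNA genes, 7.73% had a share that was higher with cytokines without overlap. The 2-sided exact permutation test of the share gave p = 0.0286, the smallest that 4 against 4 libraries allow, but this measure was chosen after the values of MEG3 had been seen.

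GENCODE 29 gave a position for 16167 of the 16525 genes, and genes without one could not be placed near MEG3. Within 2 Mb of MEG3 it placed 33 listed genes, 29 of them not members. Of these 29, 5 were called higher and 7 lower by limma (41.4%, against 27.0% of all genes). With TMM scaling 7 were higher and 3 lower (34.5%, against 24.7% of all genes). With the pairs as a block 5 were higher and 12 lower (58.6%, against 35.4% of all genes). The largest difference was that of WARS1, the tryptophanyl-tRNA synthetase, an interferon-induced enzyme, with 91.6 ± 11.95 CPM in control and 4430 ± 453 CPM in cytokine libraries (log2 fold change 5.60, SE 0.15). HSP90AA1, a cytosolic chaperone, rose by 1.33 (SE 0.26), MOK, a protein kinase, by 1.18 (SE 0.15) and EML1, a microtubule-associated protein, by 0.61 (SE 0.20) on the log2 scale. SLC25A29, a mitochondrial carrier of basic amino acids, fell by 1.60 (SE 0.13), CYP46A1, the cholesterol 24-hydroxylase, fell by 0.76 (SE 0.17) and CINP fell by 0.70 (SE 0.13). HHIPL1, with 11 to 39 reads per library, had a log2 fold change of -0.85 (SE 0.29) and was not called with TMM or in edgeR with the block.

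The 2 listed genes that border the members were not called. BEGAIN, upstream of DLK1, had 2.41 ± 0.458 CPM in control and 3.49 ± 0.935 CPM in cytokine libraries (SD, n = 4), with a log2 fold change of 0.50 and an adjusted p of 0.140 in limma, and TMM scaling gave a call at 0.65. PPP2R5C, a regulatory subunit of protein phosphatase 2A downstream of MEG9, had 68.4 ± 11.4 and 55.0 ± 4.64 CPM (log2 fold change -0.30, adjusted p = 0.115 in limma). Of 12 named genes of the imprinted domain, which reaches from DLK1 to DIO3, the 4 members were the only ones listed.

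**Figure D3:**
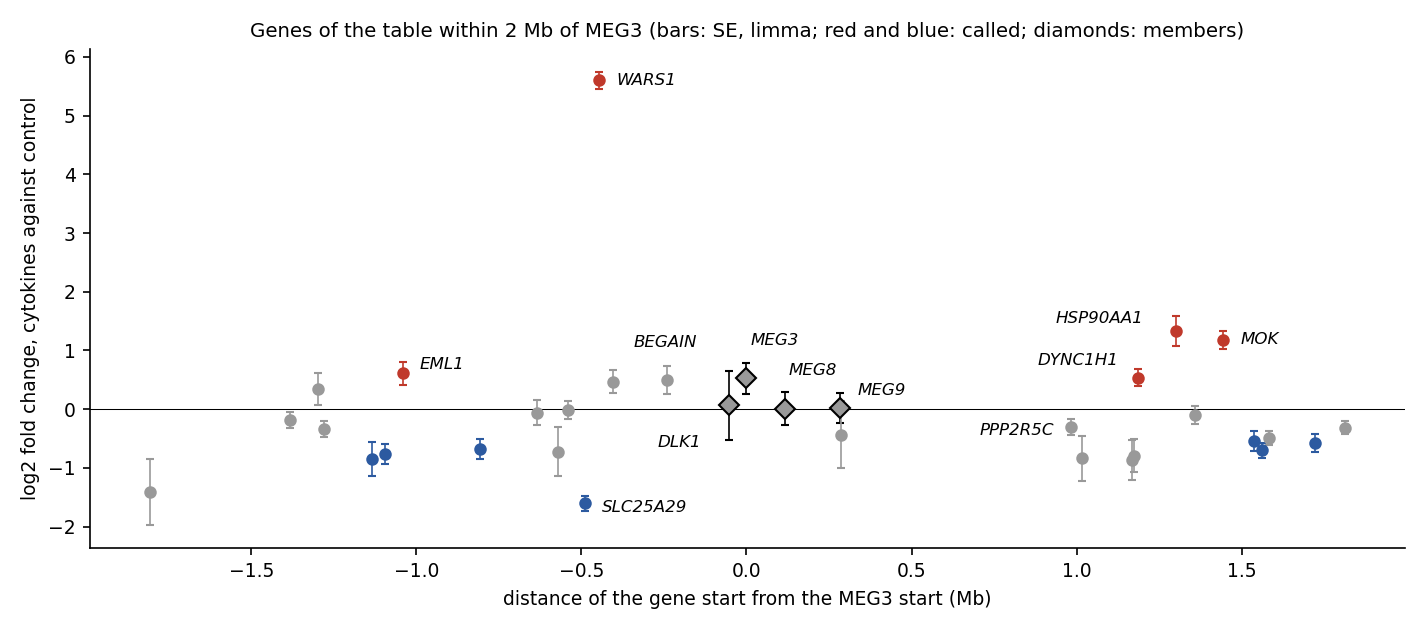
Log2 fold change of cytokines against control (y axis, with limma SE) for the 33 listed genes within 2 Mb of MEG3 by the distance of their start from that of MEG3 in Mb (x axis). Diamonds are the members, between 0.01 and 0.52 with none called, and the called genes in red (5 higher, WARS1 at 5.60) and blue (7 lower, SLC25A29 at -1.60) lie outside the span of the members.

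Imprinted genes elsewhere in the genome moved in both directions. Of 42 names, 34 were listed, and limma called 4 higher and 8 lower (35.3%, against 27.0% of all genes), with a median log2 fold change of -0.33 against -0.17 for all genes. With TMM scaling 6 were higher and 5 lower (32.4%, against 24.7% of all genes). The maternally expressed lncRNA H19 fell from 12.9 ± 2.89 to 1.70 ± 0.378 CPM (SD, n = 4) and by 2.85 (SE 0.22) on the log2 scale. Its paternally expressed neighbour IGF2, an insulin-like growth factor, fell from 385 ± 32.7 to 137 ± 7.97 CPM (log2 fold change -1.49, SE 0.11). PLAGL1, a zinc-finger transcription factor, fell by 1.33 (SE 0.27), and the lncRNA PEG13 fell by 1.299 (SE 0.32).

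The 4 imprinted genes called higher were PHLDA2, PEG10, HM13 and SNRPN. PEG10, a Gag-like protein of retrotransposon origin and a relative of RTL1, rose from 679 ± 148 to 1733 ± 324 CPM (SD, n = 4) and by 1.36 (SE 0.19) on the log2 scale. PHLDA2 rose by 1.75 (SE 0.31), HM13, the signal peptide peptidase, by 1.09 (SE 0.15) and SNRPN, a spliceosomal protein, by 0.76 (SE 0.22) on the log2 scale. The log2 change of MEG3 (0.52) lay just below that of SNRPN in the ranking of these genes.

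**Figure D4:**
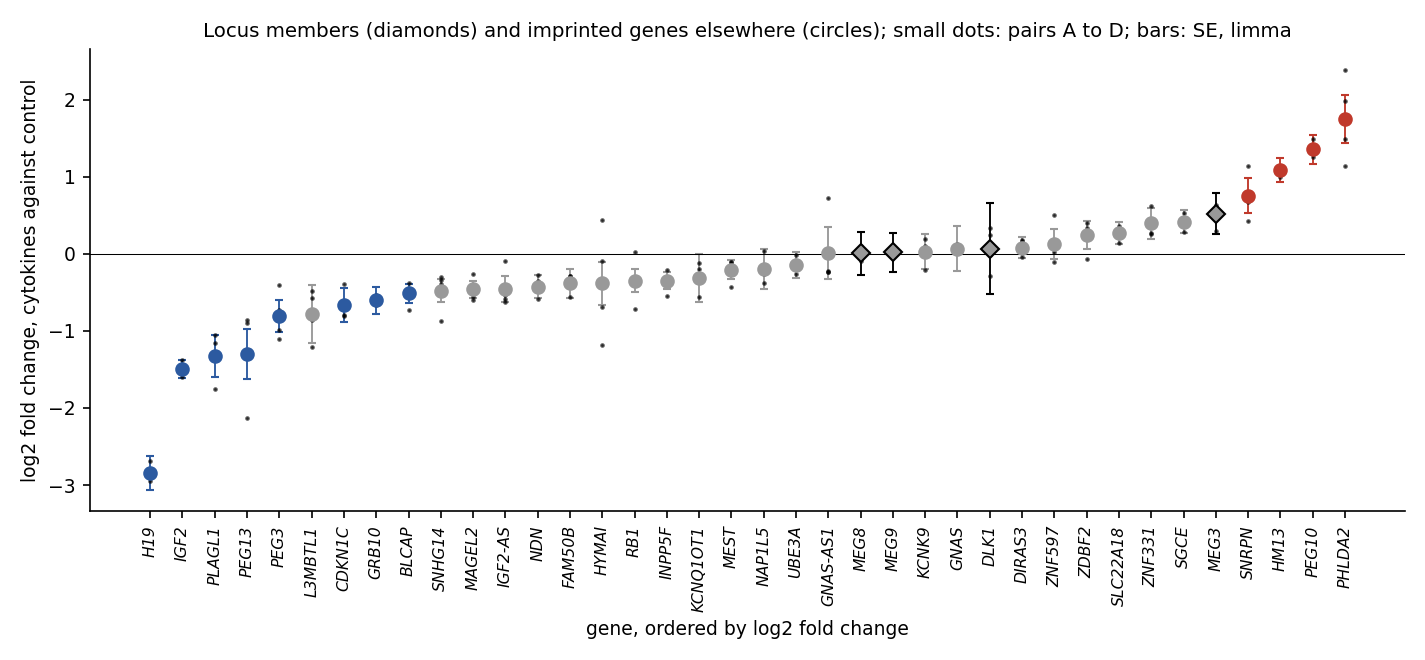
Log2 fold change of cytokines against control (y axis, with limma SE) for the 4 members (diamonds) and 34 imprinted genes elsewhere (circles), in order of the change (x axis), with small dots for pairs A to D. The 8 blue genes from H19 (-2.85) to BLCAP (-0.51, not called with TMM) and the 4 red ones from SNRPN (0.76) to PHLDA2 (1.75) were called, and the members lie between them in grey.

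Factors known to maintain imprints or reported to act on MEG3 were listed in 19 of 20 cases, ZFP57 being without a row. Of these, limma called 2 higher and 3 lower (26.3%, against 27.0% of all genes), a share near that of the whole table in this fit. TMM scaling gave 3 higher and 3 lower (31.6%, against 24.7% of all genes). The pairs as a block gave 2 higher and 3 lower (26.3%, against 35.4% of all genes). AFF3, which binds the imprinting control element upstream of MEG3, was low and rose from 0.486 ± 0.208 to 1.32 ± 0.225 CPM (SD, n = 4, log2 fold change 1.34, SE 0.31). TET2, an enzyme that oxidizes 5-methylcytosine, rose by 0.91 (SE 0.11), whereas TET1, another such enzyme, fell by 0.91 (SE 0.24). UHRF1, which brings DNA methylation to newly copied DNA, fell by 1.66 (SE 0.32) and the DNA methyltransferase DNMT3B fell by 1.13 (SE 0.31).

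As DLK1 resembles the Notch ligands, genes of the Notch pathway were also counted, with 30 of 31 listed. Limma called 2 higher and 4 lower (20.0%, below the 27.0% of all genes). With TMM scaling 5 were higher and 3 lower (26.7%, against 24.7% of all genes). With the pairs as a block 4 were higher and 6 lower (33.3%, against 35.4% of all genes). Among 6 ligands, JAG1 rose from 1.87 ± 0.577 to 9.33 ± 2.12 CPM (SD, n = 4, log2 fold change 2.27, SE 0.24) and DLL3 rose by 0.84 (SE 0.18). Among 4 receptors, NOTCH3 fell by 2.34 (SE 0.25) and NOTCH4 fell by 0.69 (SE 0.24), the latter not called with TMM or in edgeR with the block. LFNG, a glycosyltransferase that modifies Notch receptors, fell by 1.74 (SE 0.17), and the coactivator MAML3 fell by 0.90 (SE 0.14). None of the 5 listed Notch targets was called by limma (2 at an unadjusted p under 0.05), with a median log2 fold change of 0.25. TMM scaling (40.0%, against 24.7% of all genes), edgeR and DESeq2 each called 2. Limma with the pairs as a block called 3, 2 higher and 1 lower (60.0%, against 35.4% of all genes). Of 9 listed relatives of RTL1, 33.3% were called by limma, against 27.0% of all genes. PEG10 was higher, and RTL5 (log2 fold change -0.86, SE 0.11) and RTL10 (-0.64, SE 0.12) were lower. RTL10 was not called with TMM or in edgeR with the block. The called share of the 9 relatives was 22.2% with TMM (24.7% of all genes) and 33.3% with the pairs as a block in limma (35.4% of all genes).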

How the data were processed

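RNA of 4 control and 4 cytokine libraries was prepared with a strand-specific mRNA kit and sequenced as 100-base paired reads. The authors cleaned the reads with SOAPnuke and aligned them with TopHat2 2.1.1 to GRCh38. They counted reads on Ensembl 107 genes with HTSeq 0.9.1 at default settings. Genes with more than 0.5 CPM in at least 4 samples were kept and deposited as CPM. Another 4 columns of values in the table were not used. Replicate numbers do not appear in the columns, so libraries are named by column prefix as pairs A to D. All values were whole multiples of 1 read within 0.01 read, which gave the reads; intervals cover counting and library spread only. A count of 0 would allow 3 reads, 0.0587 to 0.0641 CPM.

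limma 3.58.1 in R 4.3.3 was run on all 8 libraries as log2(CPM + 0.1), without a block, with eBayes trended on intensity and Benjamini-Hochberg adjustment over 16525 genes; fold changes are on that scale. This was planned in place of the edgeR test of the study because the deposited values are CPM, with count models as alternatives if reads could be recovered. The calling thresholds (absolute log2 fold change over 0.5, FDR under 0.05) follow the study. Single values were compared by 2-sided exact permutation tests. Alternatives were count models on the reads (edgeR 4.0.16 with TMM, which called 4067 genes, and DESeq2 1.42.0, which called 4503), other scalings, pseudocounts of 0.5 and 1, a mean filter of 1 CPM, no trend, TPM, a term for the prefix group, the pairs as a replicate block, and leaving out each library. The block with TMM scaling in limma was chosen after seeing the data, as was the share of lncRNA reads. The 2 libraries of a pair deviated from their group means together (r over genes of 0.46, 0.50, 0.75 and 0.68 for A to D), so the pairs were taken as such; control A with cytokine B (0.45) and control B with cytokine A (0.49) were about as alike, and the numbering of A and B rests on the column names. The fits across genes were tested on simulated counts in which 200 genes changed, each by more than MEG3 did. Each fit recovered 199 or 200 of these, with 0 to 2 false calls. The simulation held no effect of pair or prefix group, so it does not show how the fits handle such effects or smaller changes.

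Members and gene lists were chosen with earlier results of these data known. Named genes are the members, up to 4 higher and 4 lower called genes of each list with the largest fold changes, the genes bordering the members, and the 3 genes most correlated with each member. Lengths and positions came from GENCODE 29, which held 16167 of the genes, and sequences from RefSeq (GRCh38.p14). Tables and figures used Python 3.11.15, pandas 2.3.3, numpy 2.4.6, scipy 1.17.1 and matplotlib 3.10.9.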

Additional observations from a re-analysis of the deposited data

How the results depend on the processing

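MEG3 was not called in the unpaired comparison (log2 fold change 0.52) but was called with the replicate block in limma (0.52), with the block in edgeR with TMM (0.67), with the block and TMM in limma (0.67) and with the term for the prefix groups (0.52). In the other 11 alternatives that kept all libraries it stayed uncalled, from 0.26 under quantile normalization to 0.73 relative to GAPDH. The replicate block gave no call for MEG8, MEG9 or DLK1. With TPM in place of CPM, 2673 genes were called in place of 4470 (1338 higher and 1335 lower), 6 of the neighbourhood in place of 12 and 7 imprinted genes in place of 12; the cause was not tested. With TMM, 2154 genes were higher and 1933 lower, against 1574 and 2896.

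Leaving out 1 library gave log2 fold changes of 0.29 to 0.72 for MEG3, -0.17 to 0.18 for MEG8, -0.19 to 0.24 for MEG9 and -0.36 to 0.42 for DLK1, so that the sign of the last 3 depended on the library left out and none was called. Log2 ratios to MEG3 ranged from -0.57 to -0.47 for MEG9, where 3 against 4 libraries cannot give an exact permutation p below 0.0571, from -0.79 to -0.19 for MEG8 and from -1.08 to 0.12 for DLK1. With the pairs as a block the SE of the log2 fold change went from 0.27 to 0.06 for MEG3, from 0.28 to 0.13 for MEG8, from 0.25 to 0.07 for MEG9 and from 0.59 to 0.09 for DLK1.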
